A study of Mus musculus with 3 samples.

Results

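Mir483, Mir335, Mir296 and Mir298 are the miRNA genes at the imprinted Igf2, Mest and Gnas loci. They were chosen by name and by these loci, not by a measured value, and make up 4 of the 174 hairpins that were placed on the alignments. Earlier results of these data were known when they were chosen. The reads come from 3 small RNA libraries of MIN6, an insulin-secreting cell line derived from a mouse insulinoma. The 3 libraries share the same condition, DMEM with 25 mM glucose and 10% heat-inactivated fetal bovine serum, and the study calls them biological replicates. There is therefore no untreated or second condition to compare with. The comparisons are among 5′-starts, arms and hairpins, and the error is the spread over the 3 libraries. That spread does not cover a bias between sequences that all 3 libraries share.

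Imprinted genes are expressed from the maternal or the paternal allele only. Igf2, a fetal growth factor, and Mest, a gene of the hydrolase family, are expressed mainly from the paternal allele in most tissues, and the Gnas locus, which encodes a stimulatory G protein subunit, holds transcripts of both kinds. A miRNA is cut from a hairpin first by Drosha and then by Dicer, so that the first base of the 5p arm is set by Drosha and that of the 3p arm by Dicer. The bases that follow the first base, named the seed, pair with target mRNAs, so that a miRNA whose 5′-start is shifted, a 5′-shifted isomiR, has another seed. The parental allele behind the reads was not measured.

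The sequences below show why the first base matters here. Each is a mature miRNA of RefSeq (GRCm38.p6 table), or the same miRNA with the 5′-start moved as its name says, and capitals mark the seed, bases 2 to 8. A name with +1 starts 1 base downstream of the annotated base, a name with -1 starts 1 base upstream, and a name with +2 starts 2 bases downstream.
miR-483-3p: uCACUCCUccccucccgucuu
miR-483-3p+1: cACUCCUCcccucccgucuu
miR-483-5p: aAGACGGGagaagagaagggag
miR-483-5p+1: aGACGGGAgaagagaagggag
miR-335-5p: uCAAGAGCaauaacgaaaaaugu
miR-335-3p: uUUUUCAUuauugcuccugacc
miR-335-3p-1: gUUUUUCAuuauugcuccugacc
miR-296-5p: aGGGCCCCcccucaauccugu
miR-296-3p: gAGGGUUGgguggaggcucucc
miR-298-5p: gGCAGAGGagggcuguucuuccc
miR-298-5p+2: cAGAGGAGggcuguucuuccc
No seed is shared within this set. Among the other mature miRNAs of the same table, which holds 1738 sequences, 1 shares a seed with a start of this set, namely miR-7086-5p with miR-298-5p+2.

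The arms lie in their hairpins as follows, with the annotated mature arms in capitals. The Mir483 hairpin is shown because its 5p and 3p ends are compared further on. The Mir335 hairpin is shown because it had a read that lay wholly between its arms.
Mir483 hairpin: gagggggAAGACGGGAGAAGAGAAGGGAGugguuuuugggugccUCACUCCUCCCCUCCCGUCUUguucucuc
Mir335 hairpin: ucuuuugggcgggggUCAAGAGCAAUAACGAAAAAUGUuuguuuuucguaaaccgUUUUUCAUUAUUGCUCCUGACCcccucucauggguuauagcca

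In mm9, the genome build named in the submitters' processing notes, Mir483 was placed at chr7:149840829-149840901 on the minus strand. In the GRCm38 annotation it lies in an intron of 7 transcripts of Igf2, and of 1 of the gene model Gm49394, on the same strand. Mir335 was placed at chr6:30691299-30691396 on the plus strand and lies in an intron of 7 transcripts of Mest, also on the same strand. Mir296 and Mir298 were placed next to each other at chr2:174092548-174092626 and chr2:174093005-174093086 on the minus strand. Neither overlaps an annotated gene. Mir298 lies 13652 bases and Mir296 14112 bases from the interval of Nespas, the antisense transcript of the Gnas locus, and both lie farther from Gnas itself, at 16735 and 17195 bases. The label of these genes as miRNAs at imprinted loci thus means inside the host gene for Mir483 and Mir335, and beside the annotated transcripts for Mir296 and Mir298.

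The placements are not equally certain. They rest on the bases that read mismatches exclude, in bits, with a threshold of 20. Mir483 reached 66.0 bits and Mir335 23.1 bits. Mir298 reached 17.98 bits, under the threshold, with its next placement at 9.64 bits. Mir296 reached 8.32 bits and was taken at its GRCm38 distance of 460 bases from Mir298, where no base was excluded. A placement elsewhere reached 8.74 bits, so the Mir296 values are uncertain in identity.

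The libraries held 9269795, 10816006 and 10218743 mapped reads. The 4 hairpins took 6303, 6602 and 5972.5 of them, with shared reads counted in part, or 0.0680%, 0.0610% and 0.0584%. Levels are given in RPM, the reads per 1000000 mapped reads of a library, and 0 reads of an arm allow up to 3 reads, or 0.324, 0.277 and 0.294 RPM.

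Mir483 was the most abundant of the 4 hairpins, and nearly all of its reads came from the 3p arm. miR-483-3p was at 521, 472 and 450 RPM in replicates 1, 2 and 3, with a mean of 481 ± 36.1 RPM (SD, n = 3). Its other arm, miR-483-5p, was at 33.8, 35.7 and 34.1 RPM, with a mean of 34.5 ± 1.06 RPM (SD, n = 3). The 3p arm exceeded the 5p arm by 15.4, 13.2 and 13.2 times, a mean ratio of 13.9 ± 1.27 (SD, n = 3). Among 304 placed arms with reads, miR-483-3p ranked 61 and miR-483-5p ranked 181.

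Mir335 had its higher level on the 5p arm. miR-335-5p was at 45.8, 36.8 and 39.0 RPM (mean 40.6 ± 4.71, SD, n = 3), and miR-335-3p was at 21.1, 20.2 and 16.1 RPM (mean 19.2 ± 2.66, SD, n = 3). The 5p arm was higher in 3 of 3 libraries, with ratios of 2.17, 1.82 and 2.42, so the direction of the arm preference is opposite to that of Mir483 while its size is smaller. With all arms summed, Mir483 exceeded Mir335 by 8.28, 8.89 and 8.77 times, a mean of 8.65 ± 0.328 (SD, n = 3).

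At the Gnas locus the neighbours Mir298 and Mir296 differed in level. miR-298-5p was at 52.7, 40.6 and 40.1 RPM (mean 44.4 ± 7.12, SD, n = 3). miR-296-5p was at 4.32, 3.70 and 3.13 RPM (mean 3.71 ± 0.592, SD, n = 3), from 40, 40 and 32 reads. The ratio of the former to the latter was 12.2, 10.98 and 12.8, and the libraries of these arms did not overlap. miR-296-3p, at 1.59, 1.76 and 1.76 RPM (mean 1.70 ± 0.0970, SD, n = 3), was the lowest arm with reads. The 3p arm of Mir298, which is annotated in RefSeq, had 0 reads in every library.

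In the order of mean levels, miR-298-5p was above miR-335-5p in 3 of 3 libraries, but the difference was small beside the spread between libraries, whose ranges overlapped. miR-483-5p came next, below miR-335-5p in 3 of 3 libraries, although in replicate 2 the difference was small, at 35.7 and 36.8 RPM. miR-335-3p, miR-296-5p and miR-296-3p followed without overlap between neighbours.

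**Figure D1:**
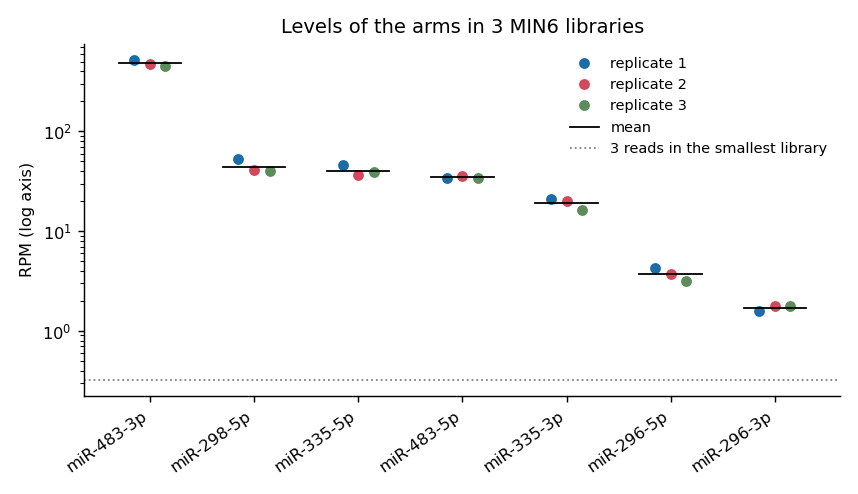
Level of each arm of Mir483, Mir335, Mir296 and Mir298 in RPM on a log axis, with 1 point per MIN6 library, the mean as a line and the level of 3 reads in the smallest library dotted. miR-483-3p sits between 450 and 521 RPM, above the other arms in every library, and miR-296-3p is lowest at 1.59 to 1.76 RPM.

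The 4 hairpins had 13 5′-starts with at least 10 reads over the libraries, and another 14 starts inside the arms with 34.5 reads in all. The miR-483-3p arm was divided between neighbouring starts. The annotated start had 1365, 1461 and 1261 reads, or 135 ± 11.9 RPM (SD, n = 3), and miR-483-3p+1 had 3449, 3626 and 3328 reads, or 344 ± 24.5 RPM (SD, n = 3). The shifted start thus held 71.5%, 71.1% and 72.3% of the arm, with 95% Wilson intervals of 70.2% to 72.7%, 69.8% to 72.3% and 71.0% to 73.6%. These intervals cover counting error only, and they overlap between libraries. Starts farther downstream were rare, with 7, 9 and 6 reads at +2 and 4, 1 and 5 reads at +3.

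A most abundant start other than the annotated one was uncommon among the placed arms. Of 1005 hairpins searched, 172 were placed by sequence at the threshold, and hairpins not placed are not counted. Of 229 placed arms with at least 100 reads in every library, 24 (10.5%) had one. These include miR-465a-3p, miR-465b-3p and miR-465c-3p, whose levels are nearly the same (39.7, 39.7 and 39.3 RPM). Of the 5 arms of Mir483, Mir335 and Mir298 among them, miR-483-3p was the one that did. The share at the annotated start, 28.1% in miR-483-3p, was lower in 10 of the 229 arms. The arms of Mir296 had too few reads to enter this count.

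**Figure D2:**
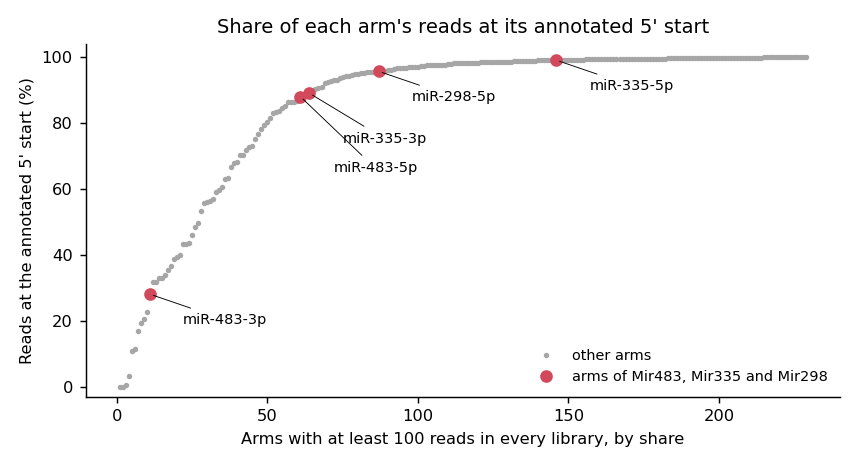
Share of the reads of each of 229 arms at the annotated 5′-start (mean of 3 libraries, %), ordered from lowest to highest, with the 5 arms of Mir483, Mir335 and Mir298 in red. miR-483-3p lies at 28.1%, and the other red points lie between 88.0% and 99.1%.

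The remaining arms kept most reads at the annotated start. miR-335-5p had 424, 393 and 394 reads there, 99.1 ± 0.589% of the arm (SD, n = 3). miR-298-5p had 95.7 ± 0.565% there, and miR-298-5p+2 had 19.7, 14 and 19 reads. miR-335-3p had 89.0 ± 3.22% there and was the arm with an upstream start above the read minimum, miR-335-3p-1, which had 24, 24 and 11 reads. All reads of the miR-296-5p arm began at the annotated base. miR-296-3p had 14.8, 17 and 15 reads at its annotated start.

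Mir483 was shifted on both arms, but not to the same extent. miR-483-5p had 274, 342 and 306 reads at the annotated start and miR-483-5p+1 had 39, 42 and 42, so the shifted start held 12.5%, 10.9% and 12.1% of the arm. The ratio of the shifted to the annotated start was 0.134 ± 0.0102 on the 5p arm and 2.55 ± 0.0810 on the 3p arm (SD, n = 3). The libraries of the arms did not overlap.

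**Figure D3:**
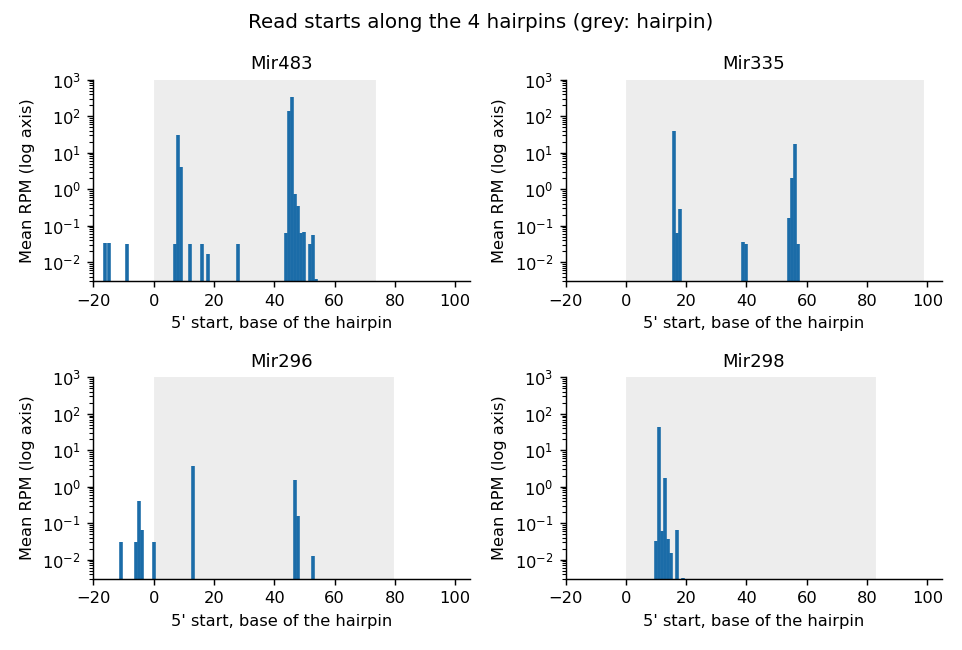
Mean level of each 5′-start over the 3 libraries (RPM, log axis) along each of the 4 hairpins, counted in bases from the first base of the hairpin, which is shaded grey. The pair of neighbouring high starts is seen on the 3p arm of Mir483, and Mir298 has starts on its 5p arm only. Mir296 and Mir483 have low starts upstream of the hairpin.

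Reads with different 5′-starts also had different 3′-ends in Mir483. The 3′-end was counted as the last base that matches the hairpin, numbered from the annotated first base of the arm, so that a read with a mismatching last base is counted at an earlier end. RefSeq ends miR-483-3p at base 21, but the reads of both starts ended most often at base 23. miR-483-3p+1 ended there in 85.7 ± 0.790% of reads and the annotated start in 46.3% (SD, n = 3), with a further 31.5% of the latter ending at base 22 and 9.52% at base 21. Accordingly, 89.7 ± 0.947% of miR-483-3p+1 reads were 22 nt long, whereas reads of the annotated start were 23 nt in 51.7% and 22 nt in 25.5%.

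On the 5p arm the difference was larger. Reads of miR-483-5p ended at base 22 in 51.0%, as annotated, and 25 nt reads made up 9.64%. Reads of miR-483-5p+1 ended at base 25 in 96.0%, and 97.4%, 100% and 90.5% of them were 24 nt long. This start therefore had almost no reads with the annotated 3′-end. The commonest reads of the Mir483 starts, as templated by the hairpin, are shown because their ends differ as well as their seeds (capitals).
miR-483-3p read: uCACUCCUccccucccgucuugu
miR-483-3p+1 read: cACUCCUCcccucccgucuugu
miR-483-5p read: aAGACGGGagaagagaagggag
miR-483-5p+1 read: aGACGGGAgaagagaagggagugg

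**Figure D4:**
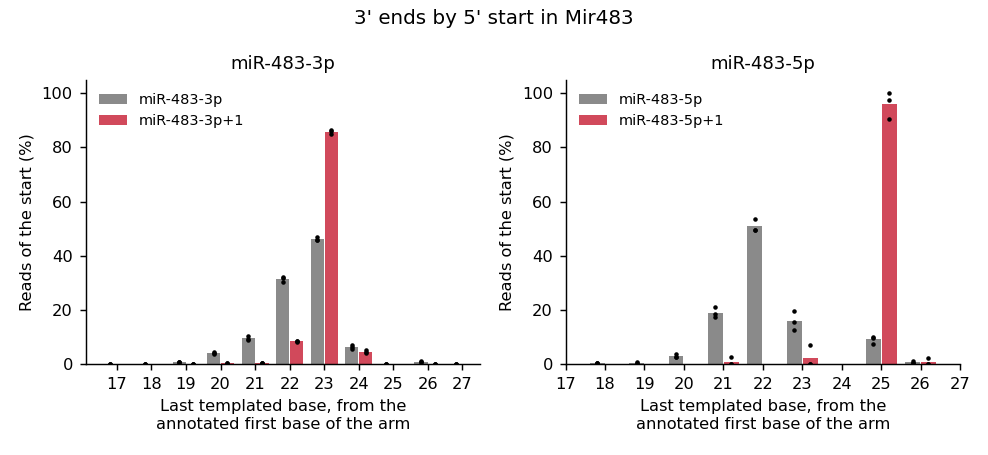
Last templated base of the reads of each Mir483 5′-start, in % of the reads of that start, with bars for the mean and dots for the 3 libraries, counted from the annotated first base of the arm. miR-483-3p+1 (red) has 85.7% of its reads at base 23 against 46.3% for the annotated start (grey), and miR-483-5p+1 has 96.0% at base 25 whereas miR-483-5p peaks at base 22.

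The uniformity of the 3′-end differed among the arms. At the most abundant start, the share of reads at the commonest 3′-end had a median of 71.5% over the 229 arms. It was 85.7% for miR-483-3p and 81.5% for miR-335-3p, 51.0% for miR-483-5p and 44.5% for miR-335-5p. miR-298-5p was spread most, with 35.6% at base 23, 25.8% at base 22 and 12.4% at base 24, and 5 of the 229 arms had a lower value. Within Mir335, the more abundant 5p arm thus had the more variable 3′-end, with 45.1% of reads at 23 nt, 32.3% at 22 nt and 18.8% at 21 nt. miR-296-5p, from 112 reads in all, was 21 nt long in 87.3 ± 4.52% (SD, n = 3).

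**Figure D5:**
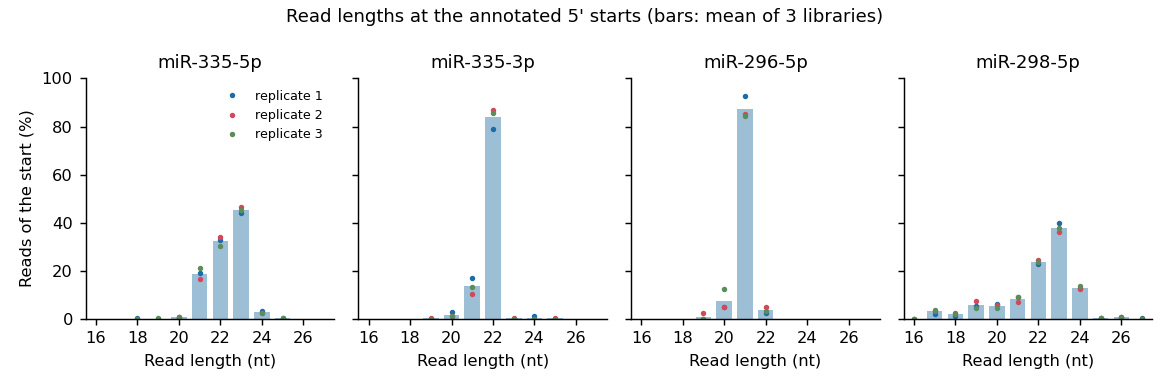
Read lengths (nt) at the annotated 5′-starts of miR-335-5p, miR-335-3p, miR-296-5p and miR-298-5p, in % of the reads of each start, with bars for the mean and points for the 3 libraries. miR-335-3p has one main length of 22 nt (83.8%), whereas miR-335-5p and miR-298-5p peak at 23 nt with 45.1% and 37.9% and extend over several lengths.

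Mismatches at the last base of a read, which the study counts as bases not templated by the genome, differed between the miR-483-3p starts. An added base that equals the next hairpin base is counted as templated. The shares given here and below thus also depend on the hairpin sequence. Such mismatches were found in 16.3%, 14.99% and 17.4% of the reads of the annotated start and in 6.23%, 6.23% and 6.31% of those of miR-483-3p+1. The difference was 10.0 ± 1.19 percentage points (SD, n = 3), in the same direction in 3 of 3 libraries. The exact two-sided permutation test, paired within libraries, gave p = 0.25, the smallest value that 3 pairs allow. The direction varied with the last templated base. At base 22 the mean share was 26.8% for the annotated start and 56.0% for miR-483-3p+1, and at base 21 it was 34.2% and 38.3%. A read with C in place of the U at base 23 is counted here as ending at base 22. There, a single C was found in 113, 118 and 117 of 299, 318 and 279 reads of miR-483-3p+1. At the annotated start it was found in 10, 15 and 10 of 415, 464 and 408 reads. Whether this C was added or replaced the U was not tested. At base 23 it was 4.98% and 0.873%, and at base 20 it was 0.585% and 0%. The difference over all reads thus did not hold at every 3′-end.

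The mismatching bases were not the same. At the annotated start, A made up 61.5% of them and T (U in the RNA) 27.2%, and the commonest form was a single A after base 22, with 92, 77 and 86 reads. At miR-483-3p+1, C made up 55.3% and A 25.3%, and the commonest form was a C after base 22, where the hairpin has U, with 113, 118 and 117 reads. Among 22 nt reads of miR-483-3p+1, whose last base is templated as U, C was read in 3.68%, 3.70% and 3.88% (mean 3.75 ± 0.112%, SD, n = 3). In the 23 nt reads of the annotated start, which end at the same base, it was read in 1.38%, 2.03% and 1.54%. In 85 other starts whose commonest read ends in U the median was 0.0581%, and 2 of them, miR-21a-5p with 8.99% and miR-130a-3p with 5.10%, were above miR-483-3p+1. Longer reads of miR-483-3p+1 that pass this base had C there in 11, 11 and 9 of 160, 198 and 141 reads, and those of the annotated start in 0 of 99, 123 and 87. This comparison was chosen after its values were seen.

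The remaining starts ranged widely in terminal mismatches. They made up 12.8%, 13.4% and 8.50% of miR-483-5p reads, mostly A (48.6%) and T (46.7%), and 0 of 39, 42 and 42 reads of miR-483-5p+1. In miR-298-5p they made up 5.03%, 4.69% and 6.55%, of which 78.2% were T. miR-335-5p had 1.42%, 1.02% and 0.254%, with 17 of the 229 arms lower, and the median of those arms was 7.88%. In miR-335-5p, where the hairpin has U after the commonest 3′-end, T made up 0% of the mismatching bases. With a mismatch at any of the last 3 bases counted, the share was 3.29% for miR-335-5p and 11.5% in place of 4.03% for miR-335-3p. The highest mean was that of miR-296-3p, at 37.3%, 0% and 13.3%, from 14.8, 17 and 15 reads. miR-335-3p-1 had 4.17%, 12.5% and 18.2% of 24, 24 and 11 reads.

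Mismatches inside the reads, with the last 3 bases of each read left out, were mainly C in place of A. Positions are counted from 1 at the 5′-end of the read, with the hairpin base first. The highest shares were A12C in miR-483-5p with 16.4%, A10C in miR-335-3p with 12.6%, A6C in miR-298-5p with 11.6% and A12C in miR-335-5p with 10.8%. Other miRNA starts with A at the same read position had medians of 17.99% at position 12, 12.3% at position 10 and 9.09% at position 6, so these mismatches were also common outside the set. The share of reads aligned without any mismatch was 69.3% for miR-335-5p and 65.3% for miR-483-5p. It was 90.1% for miR-483-3p+1 and 79.3% for the annotated miR-483-3p start. Neither had a C in place of A in 1% of reads or more at a position inside the read. Their commonest reads hold only 1 A, within the seed, and none at positions 6, 10 or 12. The sequence thus left little room for this mismatch.

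Few reads lay outside the arms. Single reads of Mir483 began upstream of its hairpin and ended at base 7 or 8. Mir296 had 6.11, 4 and 2 reads that began 6 bases before the first base of the hairpin, most often 18 nt long and reaching base 12 at most, next to the first base of miR-296-5p at base 13. Mir335 had 1 read that covered bases 39 to 54 between the arms and 1 read of 38 nt, from base 40 to base 77, that ran through the loop and the 3p arm. Mir483 also had 1 read of 28 nt, from base 28 to base 55, that ran through the loop. Reads on the opposite strand were 0 in every library for Mir483, Mir296 and Mir298, and 0, 1 and 1 for Mir335. Between the commonest 5p end and the most abundant 3p start lay 16 bases in Mir483, 17 in Mir335 and 13 in Mir296.

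Ranked by level among 1560 placed 5′-starts, miR-483-3p+1 stood between miR-409-5p (357 ± 61.4 RPM, SD, n = 3) and miR-434-5p (340 ± 26.9 RPM), which do not differ from it beyond their spread. The annotated miR-483-3p start stood between miR-1839-5p (136 RPM) and miR-30e-5p+1 (134 RPM). miR-335-5p stood between miR-344d-3p (41.8 RPM) and miR-128-1-5p (40.1 RPM), and miR-298-5p between miR-136-3p (43.1 RPM) and miR-344d-3p. miR-483-5p stood between miR-345-5p (31.0 RPM) and miR-671-5p (30.2 RPM). miR-335-3p, miR-296-5p and miR-296-3p likewise had neighbours within their spread. These neighbours are given for their level alone.

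Set beside other miRNA genes at imprinted loci, Mir483 was of middle level. Of 8 such genes, 7 were placed, all of them at the Dlk1-Dio3 locus. Mir127 was highest with 27147 ± 2915 RPM (SD, n = 3), followed by Mir541 (4875 ± 253), Mir411 (1909 ± 120) and Mir410 (680 ± 61.9). Mir483 with 515 ± 35.7 RPM overlapped Mir136 (502 ± 38.0), Mir335 with 59.7 ± 6.35 RPM overlapped Mir370 (54.0 ± 5.65), and Mir379 (115 ± 7.61) lay between them. Mir298 with 44.4 ± 7.12 RPM and Mir296 with 5.42 ± 0.508 RPM were lower. Mir675, at the H19 gene next to Igf2, was not placed and has no value.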

How the data were processed

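Small RNA was sequenced from 3 MIN6 libraries. Per the labels and the study's methods, the authors trimmed the adaptor with cutAdapt, aligned reads without mismatches to mm9 with Bowtie and then aligned the rest near those regions with mismatches allowed. The authors deposited expected counts per alignment, that is, reads divided among equally good loci, without normalization. Mismatched reads were sought near exact ones, which can lower arms without exact reads.

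Alignments marked exact end 1 base early, which was corrected. Hairpins of RefSeq (GRCm38.p6) were placed by the bases that mismatches exclude, with at least 15 reads at a start, and no coordinate was converted between builds. The placement was tested on simulated data, where only placements of at least 20 bits were scored. That test therefore does not cover the placements of Mir298 and Mir296. An arm took starts up to 5 bases from its annotated start. Described were the 5′-starts with at least 10 reads, the next start above and below each in level, and 8 imprinted miRNA genes; the members and lists were chosen with earlier results of these data known. No test between groups was possible. Python 3.11.15, numpy 2.4.6, pandas 2.3.3, scipy 1.17.1 and matplotlib 3.10.9 were used. The alternatives were other denominators, exact, single-locus or 18 to 25 nt reads, a wider 3′ mismatch and leaving out each replicate.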

Additional observations from a re-analysis of the deposited data

How the results depend on the processing

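Of 62 alternative values for 22 results, 41 moved by less than 1 SD over the libraries and 21 by more. Leaving out each of 3 replicates cannot move a mean by 1 SD, so those 66 values say nothing about stability. With exact reads as the denominator, miR-483-3p was at 672 RPM, miR-335-5p at 56.7, miR-298-5p at 62.1 and miR-296-5p at 5.19, because the same reads were divided by fewer. With exact reads only, miR-483-3p was at 585 RPM and miR-296-5p at 4.96, the ratio of miR-483-3p+1 to the annotated start was 2.90, the ratio of Mir483 3p to 5p was 18.3 and that of Mir296 5p to 3p was 2.86, and the most abundant start held 74.2% of miR-483-3p. The share of exact reads was 90.1% at miR-483-3p+1, 79.3% at the annotated miR-483-3p start and 65.3% at the annotated miR-483-5p start. The cause of this difference was not tested. With any of the last 3 bases counted, 3′ mismatches were 7.07% for miR-483-3p+1 and 18.6% for the annotated start, 3.29% for miR-335-5p and 11.5% for miR-335-3p. None of these alternatives changed which start or arm was higher in the ratios of miR-483-3p, Mir483, Mir335 and Mir296. No analysis paired across groups was possible because the libraries form 1 group, with no second group to share replicate numbers. The miR-483-3p starts were compared within each library. Depth limits Mir296 most, with 50 to 59 reads per library in its arms.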
